A study of Mus musculus with 9 samples.

Results

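The response of mouse CD4+ T cells to PMA and ionomycin was described in vehicle, that is in 4 of the 9 RNA sequencing libraries of the series, 2 unstimulated and 2 stimulated, taken by their sample titles. All cells were T cells from the spleen of C57BL/6 mice, an inbred laboratory strain, and had been purified by a method that leaves the CD4+ cells themselves untouched. The vehicle cells were kept for 1 h with DMSO, the solvent of the compound studied, and then either left unstimulated or given 10 nM PMA and 1 µM ionomycin for 2 h. The other 5 libraries came from cells of the same strain and purification that had 12.5 µM Compound 10 in place of vehicle (2 unstimulated, 3 stimulated), and they served here only in estimating the spread between libraries. The labels give no age or sex. Nor do they tell if the 2 libraries of a state derive from different mice, and the p-values therefore reflect the spread among these libraries, possibly a technical one.

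PMA is a stable mimic of diacylglycerol that switches on protein kinase C and RasGRP, and through them the MAP kinases, AP-1 and NF-kB. Ionomycin carries calcium across membranes, so that the phosphatase calcineurin dephosphorylates NFAT, which then enters the nucleus. Together the drugs stand in for the signal of the T cell receptor but start downstream of it, and NFAT and AP-1 bind neighbouring DNA sites in front of cytokine genes.

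Library sizes were 10669821 and 16784788 estimated counts without and 21852830 and 19590608 with stimulation. Nuclear and mitochondrial ribosomal RNA together took 11.8% and 33.2% of the counts in unstimulated libraries 1 and 2, and 10.3% and 19.3% in stimulated libraries 1 and 2. Levels are CPM, counts scaled to library size with TMM, given for libraries 1 and 2 of a state in that order. A gene was called where edgeR's quasi-likelihood test on all 9 libraries gave an adjusted p under 0.05. The test covered the 14040 of 45321 annotated genes that were left by a filter on low counts.

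What the promoters of strongly responding genes looked like is shown first, for the member with the largest log2 change in each of 4 lists that had an entry in the RefSeq promoter table (build GRCm38.p6). The 4 stretches below are the 250 bases before the annotated start, in the direction of transcription. Capitals mark matches, on either strand, to the AP-1 site TGANTCA, the NFAT core GGAAA, the TATA box TATAAA, the NF-kB consensus or the CArG box that serum response factor binds. They belong to Il2, the T cell growth factor gene (chr3:37125955-37126204, minus strand), Ccl3, a chemokine gene (chr11:83649379-83649628, minus strand), Egr2, an immediate-early zinc finger factor gene (chr10:67535249-67535498, plus strand), and Tnfsf14, the gene of the TNF family ligand LIGHT (chr17:57194182-57194431, minus strand).
Il2: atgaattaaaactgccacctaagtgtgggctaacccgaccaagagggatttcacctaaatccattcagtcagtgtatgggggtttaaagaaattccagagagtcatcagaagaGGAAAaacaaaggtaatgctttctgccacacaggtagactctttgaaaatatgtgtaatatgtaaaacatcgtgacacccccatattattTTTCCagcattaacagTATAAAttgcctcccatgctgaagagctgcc
Ccl3: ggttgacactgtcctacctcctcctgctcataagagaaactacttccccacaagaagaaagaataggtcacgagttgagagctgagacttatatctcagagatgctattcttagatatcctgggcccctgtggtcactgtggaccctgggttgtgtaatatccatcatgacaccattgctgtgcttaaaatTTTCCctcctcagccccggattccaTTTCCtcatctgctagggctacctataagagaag
Egr2: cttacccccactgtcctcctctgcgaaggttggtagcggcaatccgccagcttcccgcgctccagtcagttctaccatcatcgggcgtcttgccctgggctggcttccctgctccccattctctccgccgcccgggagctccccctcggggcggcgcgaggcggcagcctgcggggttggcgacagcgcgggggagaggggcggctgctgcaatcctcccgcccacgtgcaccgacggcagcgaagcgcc
Tnfsf14: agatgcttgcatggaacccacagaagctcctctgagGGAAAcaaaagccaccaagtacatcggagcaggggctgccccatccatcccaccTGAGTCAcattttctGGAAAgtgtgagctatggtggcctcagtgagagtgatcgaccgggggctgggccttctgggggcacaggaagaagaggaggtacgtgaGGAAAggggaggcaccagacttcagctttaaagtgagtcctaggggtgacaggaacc
The Il2 stretch held GGAAA on the plus strand of the gene and, nearer the start, on the other strand, and a TATAAA. Ccl3 held 2 NFAT cores close to the start, Tnfsf14 a TGANTCA between NFAT cores, and the GC-rich Egr2 stretch no match to these motifs.

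Across all genes, an AP-1 match was found in 20.7% of the 87 windows of genes called higher by at least 16-fold, against 4.26% of the 12038 windows of tested genes and 6.75% of all 32851 windows of this length. The NFAT core, which is short and common, was in 77% of these 87 windows, 54% of those of tested genes and 55.6% of all. For the NF-kB consensus, inside which a GGAAA can lie, the shares were 10.3%, 4.64% and 3.9%. The TATA box was in 14.9%, 6.6% and 12.4%, the CArG box in 4.6%, 1.16% and 1.47%, and the GC box GGGCGG in 43.7%, 56.8% and 32.7%. Windows of genes called higher by at least 2-fold stood closer to the tested genes, with 6.74% for AP-1 and 6.18% for NF-kB, and those of genes called lower by at least 2-fold gave 4.03% and 5.48%. Only 68 of the 109 genes called higher by at least 16-fold had a window, some genes have several, and the shares are descriptions without a test.

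**Figure D1:**
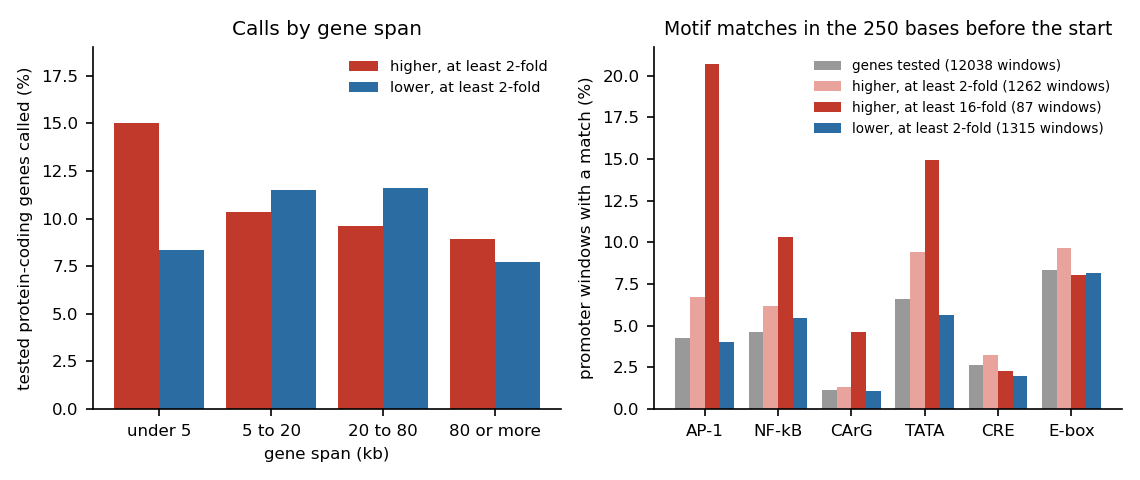
Left, share of tested protein-coding genes called higher or lower by at least 2-fold, in bins of gene span from first to last annotated base. Right, share of RefSeq promoter windows of 250 bases with at least 1 match, by gene set. The shortest genes hold the largest share called higher (15%), and AP-1 matches are in 20.7% of the windows of genes called higher by at least 16-fold.

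Of the genes tested, 2012 were called higher (14.3%) and 1931 lower (13.8%) with stimulation, 28.1% together. At least 2-fold changes were called higher for 1409 genes (10.0%) and lower for 1286 (9.16%). The balance shifted with size: 501 against 285 genes changed by at least 4-fold, 109 against 21 by at least 16-fold and 31 against 3 by at least 128-fold. Among these large rises, 30 of the 109 and 22 of the 31 had 0 counts in both unstimulated libraries, so that their fitted folds depend on the prior count. The values of the 2 unstimulated and 2 stimulated libraries did not overlap for 63.3% of the genes tested. Without unstimulated vehicle library 2, 2425 genes were called, and without stimulated vehicle library 1, 2820. With the rRNA-rich vehicle library of each state left out (both numbered 2, an alternative added after the data were seen), 1596 were called, and 1555 of these were called in the full set in the same direction.

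Expressed as a share of all counts outside ribosomal RNA, the genes called higher took 22.5% and 19.6% of the unstimulated libraries and 42.2% and 41.2% of the stimulated ones. Those called lower took 8.8% and 7.93%, then 2.73% and 2.73%. The calls came from these same libraries, so the direction of both shifts follows from the selection. Genes not called took 68.5% and 72.3%, then 54.9% and 55.9%. In the stimulated libraries the largest shares among genes called higher belonged to Actb, which encodes cytoskeletal actin, Srgn, the proteoglycan of secretory granules, Hspa8, a chaperone, and Nr4a1, an orphan nuclear receptor. Srgn stood at 1155 and 1096 CPM without and 12122 and 10735 CPM with stimulation (log2 change 3.34, SE 0.28, adjusted p = 4.84e-06), and Nr4a1 at 331 and 246 CPM without and 8752 and 6940 CPM with stimulation (log2 change 4.77, SE 0.30, adjusted p = 7.25e-07). Both genes were high in both stimulated libraries, with no overlap. Per length, Srgn reached 13144 and 11180 TPM and Nr4a1 3182 and 2393 TPM with stimulation, from 1860 and 1168 and 174 and 87 TPM without.

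A set of 16 genes went from under 1 CPM in both unstimulated libraries to at least 10 CPM in both stimulated ones, and 0 made the opposite passage. By this description, 10 were cytokine and chemokine genes (Il2, Il5, Il13, Il17a, Il21, Csf2, Lif, Ccl1, Ccl3, Cxcl2). The rest included Crtam, an adhesion molecule of activated T cells, Sphk1, a kinase that makes sphingosine 1-phosphate, Lipg, a lipase, Cdh23, a cadherin, and Mir155hg, the host transcript of the microRNA miR-155. Mir155hg stood at 0.937 and 0.774 CPM without and 22.4 and 47.8 CPM with stimulation and Sphk1 at 0.0721 and 0.387 CPM without and 17.7 and 12.5 CPM with stimulation (log2 changes 5.35, SE 0.43, and 5.95, SE 0.60). Crtam is on a list fixed for this description, whereas Sphk1, Lipg, Cdh23 and Mir155hg are named because of their values.

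**Figure D2:**
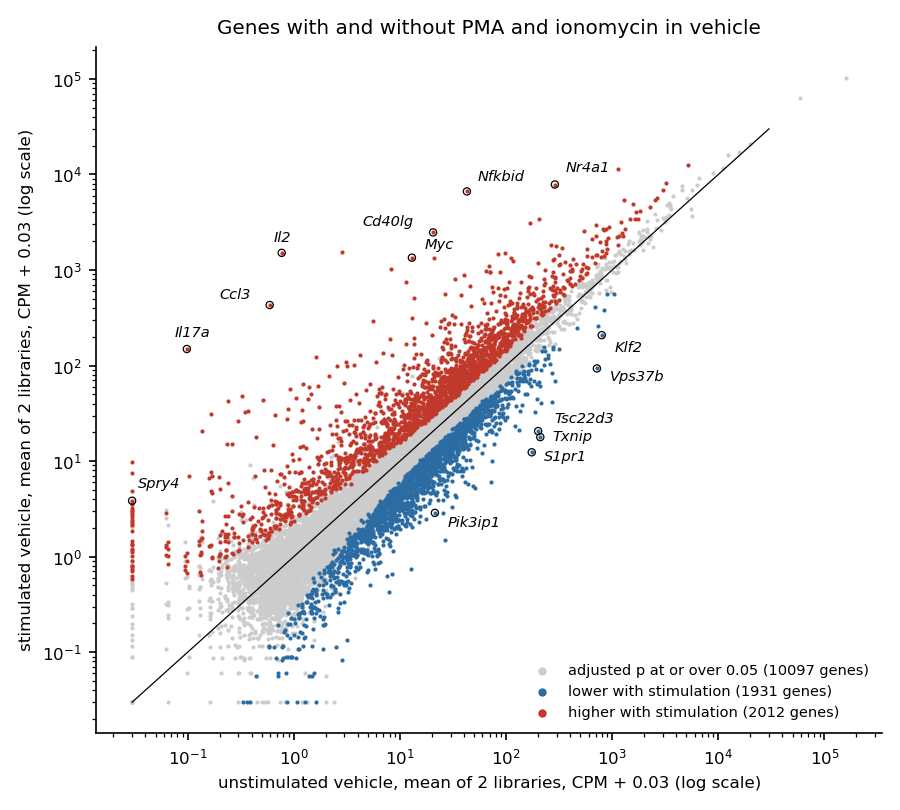
Mean level of each tested gene in the 2 stimulated against the 2 unstimulated vehicle libraries, in CPM on log axes, with 0.03 added so that zeros can be drawn. The line marks equal levels. The far upper left holds Il2, Ccl3 and Il17a, and the genes called lower (1931) lie closer to the line than the furthest of those called higher (2012).

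Immediate-early genes, which need no new protein for their transcription, were called higher for 20 of 22, with a median log2 change of 3.32 over the list against -0.05 over all genes tested. Egr2 stood at 10.9 and 12.1 CPM without and 758 and 750 CPM with stimulation (log2 change 6.03, SE 0.24, adjusted p = 2.37e-08). The orphan receptor genes followed, with Nr4a2 at 68.5 and 71.6 CPM without and 1043 and 857 CPM with stimulation (log2 change 3.76, SE 0.25, adjusted p = 1.23e-06) and Nr4a3 at 91.1 and 141 CPM without and 954 and 1519 CPM with stimulation (log2 change 3.41, SE 0.34, adjusted p = 2.01e-05). Every one of these was high in both stimulated libraries, far above either unstimulated one. Myc, the growth factor-responsive transcription factor gene, went from 11.2 and 14.6 to 1459 and 1232 CPM (log2 change 6.7, SE 0.31, adjusted p = 9.74e-08). Egr1 rose by 3.73 (SE 0.29) and Egr3 by 6.27 (SE 0.36) on the log2 scale, and Nab2, a corepressor that binds EGR proteins, by 3.22 (SE 0.23). Klf6, a zinc finger factor usually counted among immediate-early genes, went the other way, from 201 and 177 to 32 and 32.6 CPM (log2 change -2.55, SE 0.29, adjusted p = 6.17e-05). Btg2, an antiproliferative gene, stood at 242 and 237 CPM without and 370 and 334 CPM with stimulation and was not called (adjusted p = 0.0534, but 0.0195 without stimulated Compound 10 library 2).

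**Figure D3:**
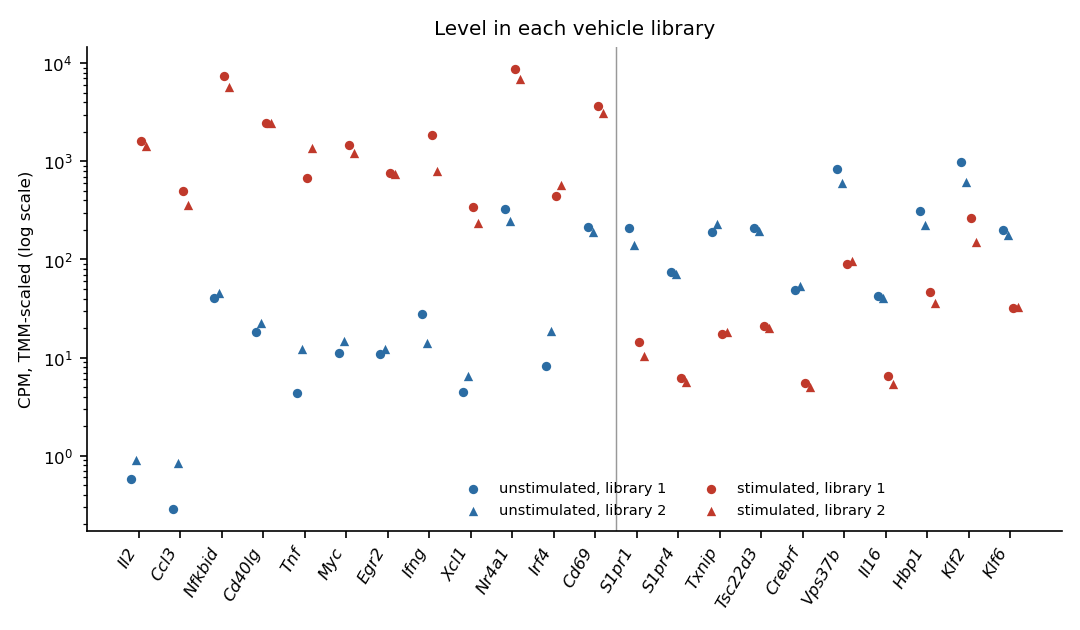
Level of 22 genes in each of the 4 vehicle libraries, in CPM on a log axis; genes left of the line were called higher and those right of it lower. The symbols of the 2 states do not overlap for any of these genes, which were drawn because the text describes them. Most of them were named by a rule that required no overlap.

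AP-1 is a dimer of basic leucine zipper proteins, and of its 15 tested family members 13 were called higher (list median 1.33). Fosl1 was at 0.649 and 1.03 CPM without and 35.1 and 20.4 CPM with stimulation (log2 change 5.02, SE 0.35, adjusted p = 1.56e-06) and Fos at 61 and 63.6 CPM without and 441 and 457 CPM with stimulation (log2 change 2.85, SE 0.20, adjusted p = 1.74e-06). Atf3, a stress-responsive member, rose by 3.94 (SE 0.24), Maff, a small MAF, by 3.64 (SE 0.24), and Batf, which pairs with JUN and IRF4 in T cells, by 1.46 (SE 0.20). Junb and Jund had smaller differences than Fos, with Junb at 450 and 309 CPM without and 853 and 666 CPM with stimulation (log2 change 1.0, SE 0.30) and Jund at 505 and 337 CPM without and 1166 and 764 CPM with stimulation (1.2, SE 0.32). These calls were lost without 1 library: the adjusted p of Junb was 0.181 without unstimulated library 2 and 0.148 without stimulated library 1, and that of Jund 0.126 and 0.13. Bach2, a repressor that competes with AP-1, was at 59.5 and 67.2 CPM without and 47 and 46.8 CPM with stimulation and was not called (adjusted p = 0.0859). Without both rRNA-rich libraries, 9 of the 15 were called higher.

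Genes of the calcium and NFAT arm moved in both directions, with 4 of 19 called higher and 4 lower, the latter 2 without unstimulated vehicle library 2 or without either stimulated one. Each of these shares was 21.1% with all libraries, against 14.3% higher and 13.8% lower of all genes tested. The list median was -0.23, and -0.34 and -0.44 without stimulated vehicle library 1 and 2. Nfatc1, the NFAT gene under the control of its own product, was at 62.8 and 69 CPM without and 386 and 326 CPM with stimulation (log2 change 2.43, SE 0.29, adjusted p = 7.35e-05). The gene of the store-operated calcium channel Orai1 was at 284 and 179 CPM without and 1264 and 720 CPM with stimulation (log2 change 2.1, SE 0.29, adjusted p = 0.000263), and that of the calcium sensor Stim2 rose by 1.31 (SE 0.18). Nfat5, the NFAT relative that responds to tonicity, rose by 1.05 (SE 0.18). Nfatc3 fell from 35.6 and 45 to 13.4 and 18.7 CPM (log2 change -1.33, SE 0.25, adjusted p = 0.00178) and Rcan3, a calcineurin regulator, from 17.6 and 17.6 to 5.22 and 4.32 CPM (log2 change -1.88, SE 0.22, adjusted p = 7.26e-05). Stim1, the main calcium sensor, was not called, at 87 and 88.7 CPM without and 59.9 and 58.9 CPM with stimulation (log2 change -0.57, SE 0.21, adjusted p = 0.0616, but 0.0233 without stimulated Compound 10 library 2).

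Among the transcripts of Nfatc1, as kallisto divided the reads between them, Nfatc1-201 went from 7.51 and 4.64 TPM to 50.5 and 34.9 TPM, Nfatc1-202 from 4.23 and 5.03 to 15.7 and 18.1 TPM, and Nfatc1-204 from 5.09 and 2.82 to 7.0 and 5.22 TPM. Nfatc1-201 was the form with the highest TPM in both stimulated libraries. Such divisions are estimates for transcripts that share exons, and no test was run on them.

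NF-kB dimers are held by IkB proteins whose genes they also induce, and 12 of 20 genes of subunits, inhibitors and feedback were called higher and 4 lower (2 without unstimulated vehicle library 1), with a median of 1.34. Nfkbid, which encodes the nuclear IkB protein IkBNS, was at 40.1 and 45.4 CPM without and 7503 and 5782 CPM with stimulation (log2 change 7.28, SE 0.31, adjusted p = 4.47e-08). Rel, the c-Rel subunit gene, was at 66.8 and 61.4 CPM without and 1070 and 890 CPM with stimulation (log2 change 3.93, SE 0.24, adjusted p = 7.25e-07). Each was higher in both stimulated libraries than in either unstimulated one. The inhibitor genes Nfkbie, Nfkbiz and Nfkbia rose by 2.95 (SE 0.25), 2.27 (SE 0.25) and 1.7 (SE 0.26), Nfkb1 by 2.12 (SE 0.24) and Rela by 1.56 (SE 0.24). With all libraries 60% of the list was called higher and 20% lower, against 14.3% and 13.8% of all genes tested. Tnip1, which helps the ubiquitin editor A20 restrain NF-kB, fell from 51.2 and 52.8 to 16.7 and 16.5 CPM (log2 change -1.64, SE 0.17, adjusted p = 2.77e-05). Relb was not called, at 107 and 59 CPM without and 131 and 97.9 CPM with stimulation (adjusted p = 0.205, but 0.0219 without unstimulated vehicle library 1).

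Genes that damp the MAP kinase route were called higher for 12 of 16 (median 2.34). The nuclear phosphatase gene Dusp2 was at 72.6 and 66.9 CPM without and 1187 and 1008 CPM with stimulation (log2 change 3.98, SE 0.34, adjusted p = 6.2e-06), and Dusp5 and Dusp6, which act on ERK, rose by 2.43 (SE 0.32) and 2.83 (SE 0.31). Spry1, an inhibitor of RAS signalling, was at 4.32 and 1.87 CPM without and 135 and 83 CPM with stimulation (log2 change 5.14, SE 0.50, adjusted p = 0.000112). Its relative Spry4 had 0 counts in the unstimulated pair and 139 in the stimulated pair. With 3 counts per group taken as the most that 0 allows, Spry4 was at least 38-fold higher. Bounds and counting intervals cover counting error only. Dusp10, a phosphatase of JNK and p38, fell from 152 and 157 to 66.1 and 70.4 CPM (log2 change -1.18, SE 0.20, adjusted p = 0.00102). Dusp1 was not called (163 and 98.1 CPM without and 212 and 148 CPM with stimulation; adjusted p = 0.282). Map3k8, the kinase TPL2 that feeds into ERK, was among the 15 genes furthest up, at 1.73 and 3.29 CPM without and 112 and 84.5 CPM with stimulation (log2 change 5.28, SE 0.29, adjusted p = 4e-07), as was Trib1, a pseudokinase, at 3.67 and 4.71 CPM without and 147 and 108 CPM with stimulation (log2 change 4.92, SE 0.24, adjusted p = 1.37e-07).

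Factors that shorten the life of cytokine mRNAs responded unevenly, with 7 of 16 called higher and 4 lower, the latter 1 without either unstimulated vehicle library and 2 without either stimulated vehicle library or either unstimulated Compound 10 library. Of the zinc finger proteins that bind AU-rich elements, Zfp36l1 was at 175 and 164 CPM without and 3711 and 2453 CPM with stimulation (log2 change 4.18, SE 0.30, adjusted p = 1.74e-06), and Zfp36 and Zfp36l2 rose by 1.65 (SE 0.22) and 2.07 (SE 0.34). Zc3h12a, the RNase Regnase-1, rose by 2.71 (SE 0.26). Btg1, which recruits deadenylases, rose by 1.24 (SE 0.24). The members described here all rose, while the log2 changes of the list ran from -1.18 to 4.18. With all libraries 43.75% of the list was called higher and 25% lower, against 14.3% and 13.8% of all genes tested.

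Secreted cytokine genes were the list with the largest median in the test of all 9 libraries, with 20 of 24 tested genes called higher and a median log2 change of 5.43, or 4.51 with the 3 genes that had 0 unstimulated counts set at their lower bounds. Chemokines had the larger median with the stricter filter (6.48 against 5.87) and by limma on log2(TPM + 1) (4.32 against 3.24) and log2(TPM + 0.1) (5.43 against 3.95). Il2 was at 0.576 and 0.903 CPM without and 1605 and 1420 CPM with stimulation (log2 change 10.97, SE 0.42, adjusted p = 2.37e-08), Tnf at 4.32 and 12.1 CPM without and 678 and 1368 CPM with stimulation (log2 change 6.95, SE 0.57, adjusted p = 2.42e-05) while Ifng stood at 28 and 14.2 CPM without and 1848 and 791 CPM with stimulation (log2 change 5.97, SE 0.57, adjusted p = 8.29e-05). The 2 stimulated libraries differed for Tnf and Ifng, in opposite directions, yet both were far above the unstimulated ones. Genes tied to different helper types rose side by side: Il4 by 3.87 (SE 0.29), Il13 by 7.28 (SE 0.58), Il21 by 6.55 (SE 0.47), Il10 by 4.45 (SE 0.51) and Csf2, the GM-CSF gene, by 7.76 (SE 0.68). Il17a, the product of TH17 cells, had 2 unstimulated and 5345 stimulated counts, 2191-fold more per scaled count (exact 95% interval from counting, 606 to 18090). Il6 had 0 and 25 counts, at least 6.83-fold higher. The precursor gene of the chemoattractant Il16 fell from 42.5 and 40.1 to 6.52 and 5.4 CPM (log2 change -2.79, SE 0.23, adjusted p = 4.61e-06). Ebi3, a subunit shared by IL-27 and IL-35, was not called (-0.56, SE 0.59).

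Chemokine genes were called higher for 7 of 13 (median 1.57, and 2.8 without unstimulated vehicle library 2). Ccl3 and Ccl4, which encode attractants of leukocytes, were at 0.288 and 0.839 CPM without and 501 and 359 CPM with stimulation (log2 change 9.53, SE 0.45, adjusted p = 9.74e-08) and at 3.89 and 1.81 CPM without and 2070 and 1015 CPM with stimulation (log2 change 9.09, SE 0.51, adjusted p = 6.7e-07). Xcl1, the lymphotactin gene, was at 4.47 and 6.52 CPM without and 346 and 237 CPM with stimulation (log2 change 5.72, SE 0.35, adjusted p = 9.39e-07). No value of a stimulated library reached down to an unstimulated one in these 3 genes, which the rule for the 15 genes furthest up required. Cxcl2 rose by 6.57 (SE 0.41), whereas Ccl20 had 0 unstimulated and 66 stimulated counts (at least 18-fold higher).

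Surface molecules of activated cells were called higher for 17 of 20 (median 2.91). Cd40lg, the ligand through which helper T cells license B cells, was at 18.4 and 22.6 CPM without and 2482 and 2468 CPM with stimulation (log2 change 6.91, SE 0.31, adjusted p = 6.3e-08), and Cd69, which holds lymphocytes in tissue by pairing with S1PR1, at 217 and 190 CPM without and 3634 and 3129 CPM with stimulation (log2 change 4.06, SE 0.28, adjusted p = 1.44e-06). Il2ra, the high-affinity chain of the IL-2 receptor, was at 6.63 and 9.48 CPM without and 192 and 185 CPM with stimulation (log2 change 4.55, SE 0.27, adjusted p = 6.7e-07). In each, both stimulated libraries were above both unstimulated ones. The TNF family ligands Tnfsf14, Tnfsf11 and Tnfsf8 rose by 5.45 (SE 0.34), 4.19 (SE 0.30) and 3.14 (SE 0.28). The transferrin receptor gene Tfrc rose by 3.87 (SE 0.43) and Slamf1 by 4.6 (SE 0.22). Icam1 and Tnfrsf18 (GITR) were not called, at 114 and 89.8 CPM without and 77.9 and 80.6 CPM with stimulation and at 30.8 and 19.7 CPM without and 20.6 and 15.6 CPM with stimulation.

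Of 14 inhibitory receptor and ligand genes, 6 were called higher (42.9%, against 14.3% of all genes tested), with a median of 0.73. Btla was at 1.95 and 2.32 CPM without and 60.3 and 93.8 CPM with stimulation (log2 change 5.17, SE 0.37, adjusted p = 2.41e-06) and Cd160, which binds the same ligand as BTLA, at 1.15 and 0.903 CPM without and 55.5 and 35.3 CPM with stimulation (log2 change 5.46, SE 0.33, adjusted p = 6.79e-07). Both rose, as did Ctla4, by 2.24 (SE 0.28), and Pdcd1lg2, a PD-1 ligand gene, by 3.6 (SE 0.26). Pdcd1 itself was at 32 and 17.4 CPM without and 49.7 and 34.4 CPM with stimulation, Lag3 at 10.2 and 3.36 CPM without and 18.9 and 5.58 CPM with stimulation and Tigit at 37.1 and 29.6 CPM without and 29.9 and 21.3 CPM with stimulation, and none of them was called with all libraries (adjusted p = 0.0689, 0.436 and 0.25). Leaving out unstimulated library 1 gave a call for Pdcd1 (adjusted p = 0.0165).

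Genes of resting and naive T cells were called lower for 12 of 24 and higher for 4 (median -0.76, and -0.48 without unstimulated vehicle library 2). The share lower was 50%, against 13.8% of all genes tested. The share higher, 16.7%, was near the 14.3% of all genes. S1pr1, through which T cells sense the way out of a lymph node, was at 210 and 139 CPM without and 14.3 and 10.4 CPM with stimulation (log2 change -3.82, SE 0.26, adjusted p = 1.49e-06), and S1pr4 at 74.4 and 70.6 CPM without and 6.26 and 5.7 CPM with stimulation (log2 change -3.6, SE 0.19, adjusted p = 3.53e-07). Klf2, the factor that drives S1pr1 transcription, was at 979 and 615 CPM without and 265 and 151 CPM with stimulation (log2 change -1.94, SE 0.29, adjusted p = 0.000424). In each of the 3, both stimulated libraries were below both unstimulated ones, which the rule that named S1pr1 and S1pr4 required of them. Ccr7, the lymph node homing receptor, fell by 1.5 (SE 0.24) on the log2 scale. Pik3ip1, a brake on PI3 kinase, and Tsc22d3, a glucocorticoid-induced gene, fell by 2.91 (SE 0.24) and 3.28 (SE 0.21), and Klf3 by 1.87 (SE 0.19). Il7r, the survival receptor gene, was at 26.4 and 42.2 CPM without and 15.5 and 16.6 CPM with stimulation (log2 change -1.1, SE 0.28, adjusted p = 0.0114), a call lost without unstimulated library 2 (adjusted p = 0.135), stimulated library 1 (0.0752) or stimulated library 2 (0.0574). Lef1, a naive T cell factor, was not called (-0.42, SE 0.18), and Satb1, Tob1 and Il6st rose by 1.11 (SE 0.22), 1.29 (SE 0.24) and 1.61 (SE 0.24). The call of Satb1 was lost in 5 of the alternative settings and that of Il6st in 1.

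Several of the 15 genes furthest down stood outside these lists. Txnip, an inhibitor of thioredoxin and of glucose uptake, was at 191 and 230 CPM without and 17.4 and 18.2 CPM with stimulation (log2 change -3.56, SE 0.35, adjusted p = 3e-05), and Vps37b, a subunit of the ESCRT-I sorting complex, at 830 and 606 CPM without and 89.9 and 96.5 CPM with stimulation (log2 change -2.95, SE 0.23, adjusted p = 3.18e-06). Crebrf, a regulator of CREB3 proteins, was at 49.1 and 53.6 CPM without and 5.48 and 4.98 CPM with stimulation (log2 change -3.29, SE 0.30, adjusted p = 1.18e-05). All 3 were higher in both unstimulated libraries than in either stimulated one, which the rule for these 15 genes required. Rnf125, a ubiquitin ligase gene, fell by 2.87 (SE 0.21), Hbp1, a repressor of cell cycle genes, by 2.71 (SE 0.23) and Tdrp by 3.14 (SE 0.19). Rnf145, Rflnb, Gramd3 and Frmd8 fell, with log2 changes of -2.65, -2.72, -2.42 and -2.38 (SE 0.24, 0.25, 0.29 and 0.22). Among long noncoding RNAs, Gm17322 was at 0.216 and 0.0645 CPM without and 7.57 and 6.47 CPM with stimulation (log2 change 5.6, SE 0.48, adjusted p = 6.94e-06) and Gm9889 at 8.65 and 6.97 CPM without and 0.313 and 0.48 CPM with stimulation (log2 change -4.28, SE 0.39, adjusted p = 1.1e-05).

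**Figure D4:**
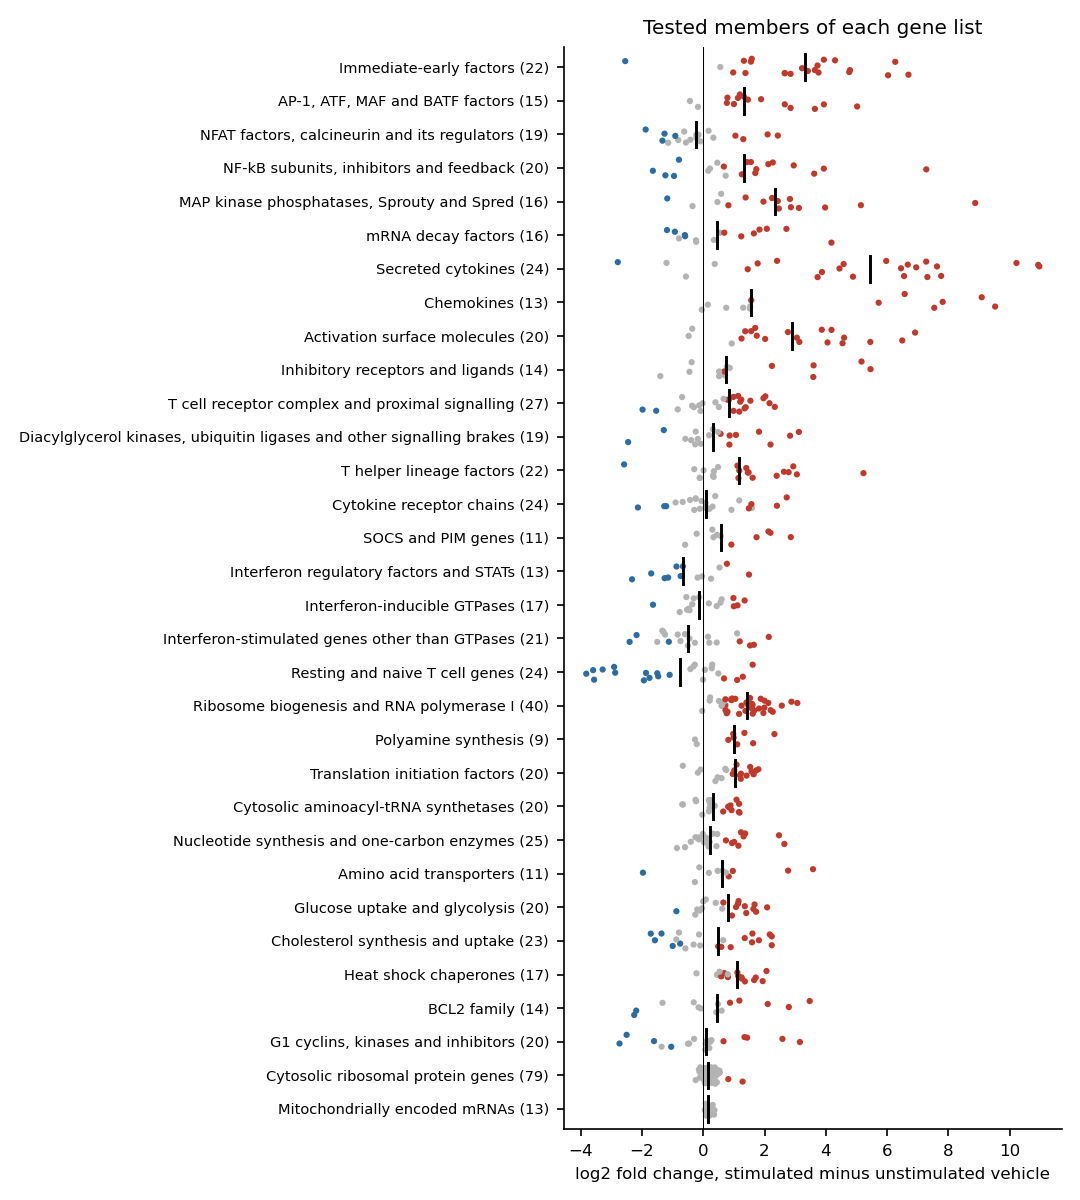
Log2 fold change of every tested member of 32 gene lists (number tested in parentheses), stimulated minus unstimulated vehicle. Red marks a call higher, blue a call lower, grey no call, and the black bar the list median, which runs from 5.43 for secreted cytokines to -0.76 for resting and naive genes (-0.48 without unstimulated vehicle library 2).

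Although PMA and ionomycin bypass the T cell receptor, 15 of 27 genes of the receptor complex and its proximal signalling were called higher and 2 lower (median 0.83). Zap70, the kinase that binds the receptor, was at 61.5 and 55.6 CPM without and 266 and 191 CPM with stimulation (log2 change 1.96, SE 0.21, adjusted p = 3.11e-05), the adaptor gene Lat at 163 and 158 CPM without and 757 and 546 CPM with stimulation (log2 change 2.03, SE 0.24, adjusted p = 6.94e-05) and Lcp2 (SLP-76) at 11.4 and 18.2 CPM without and 68.1 and 81.5 CPM with stimulation (log2 change 2.34, SE 0.23, adjusted p = 2.18e-05). All were higher in both stimulated libraries. Plcg1, the phospholipase that makes the natural counterpart of PMA, fell from 51.2 and 56.1 to 13.4 and 13.7 CPM (log2 change -1.98, SE 0.24, adjusted p = 8.69e-05), and Grap2, the adaptor GADS, by 1.54 (SE 0.24) on the log2 scale.

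The constant segment of the receptor's alpha chain, Trac, was at 168 and 178 CPM without and 984 and 718 CPM with stimulation (log2 change 2.3, SE 0.22, adjusted p = 1.34e-05), and those of the beta chain were at 127 and 129 CPM without and 290 and 242 CPM with stimulation for Trbc1 (log2 change 1.05, SE 0.18, adjusted p = 0.0011) and at 292 and 297 CPM without and 488 and 415 CPM with stimulation for Trbc2 (log2 change 0.62, SE 0.19, adjusted p = 0.0286). Trac was thus 4.92-fold and Trbc1 2.08-fold higher. The call of Trbc2 was lost without unstimulated library 1 (adjusted p = 0.125), unstimulated library 2 (0.106) or stimulated library 1 (0.157), and without either unstimulated Compound 10 library (0.0512 and 0.0516). The CD3 chains of the same complex did not all move with it: Cd247 (CD3 zeta) rose by 1.24 (SE 0.19), whereas Cd3d was not called, at 158 and 238 CPM without and 175 and 197 CPM with stimulation (-0.09, SE 0.23, adjusted p = 0.823).

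Variable segments, examined after the constant ones had been seen, went with their chain. Of 94 tested Trav segments 70 were called higher (median log2 change 1.96), and their summed level went from 89.6 and 95.8 CPM to 385 and 294 CPM. Of 21 Trbv segments 7 were called higher (median 0.69), with sums of 122 and 135, then 215 and 179 CPM. Among 57 Ighv and 70 Igkv immunoglobulin segments, 1 and 4 were called higher and 2 and 1 lower, and the medians were 0.14 and -0.08. Segments of 1 family are near-identical in part, so the counts of single segments are uncertain, and the test of a difference between alpha and beta chains was not run.

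**Figure D5:**
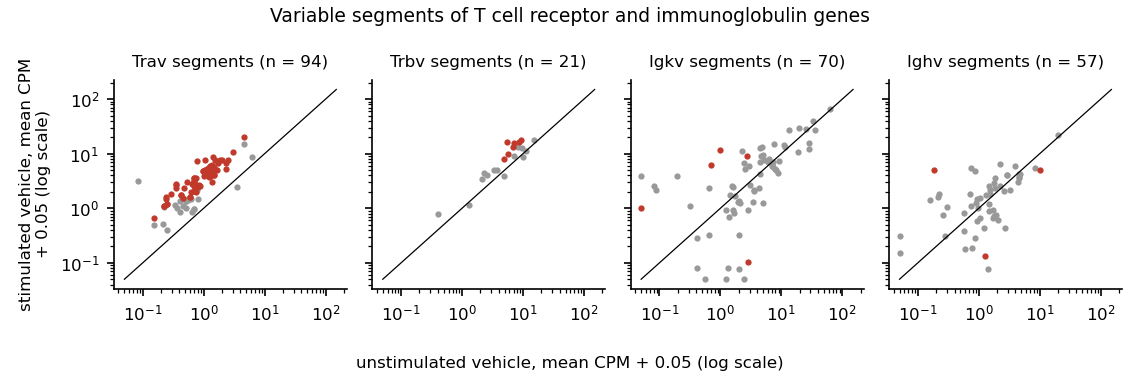
Mean level of each tested variable segment in stimulated against unstimulated vehicle libraries, in CPM on log axes with 0.05 added; red marks segments called in either direction. Trav points lie above the line of equal levels for nearly the whole family (70 of 94 called higher), and the immunoglobulin points scatter around it.

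Signalling brakes were called higher for 8 of 19 (42.1%) and lower for 2 (10.5%), against 14.3% and 13.8% of all genes tested. The list median was 0.31, and 0.06 without unstimulated vehicle library 1. Ptpn22, a phosphatase of LCK and ZAP-70, was at 111 and 101 CPM without and 772 and 739 CPM with stimulation (log2 change 2.83, SE 0.22, adjusted p = 2.94e-06), and Ndfip1, which activates the ubiquitin ligase ITCH, at 329 and 241 CPM without and 1490 and 1121 CPM with stimulation (log2 change 2.2, SE 0.26, adjusted p = 7.99e-05). Peli1 and Ubash3b rose by 1.82 (SE 0.21) and 3.12 (SE 0.24). The diacylglycerol kinase gene Dgka, whose product ends diacylglycerol signals, fell from 101 and 126 to 49.2 and 43.6 CPM (log2 change -1.29, SE 0.24, adjusted p = 0.00181), while Dgkz was not called (-0.26, SE 0.19). Ubash3a, a relative of Ubash3b, fell by 2.45 (SE 0.46).

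T helper lineage factors were called higher for 13 of 22 (median 1.16), and factors of different lineages were among them. Irf4, needed for most effector lineages, was at 8.29 and 18.7 CPM without and 444 and 571 CPM with stimulation (log2 change 5.23, SE 0.51, adjusted p = 0.000114), Tbx21, the TH1 factor T-bet, at 10.1 and 4.32 CPM without and 56 and 43 CPM with stimulation (log2 change 2.79, SE 0.45, adjusted p = 0.00181) and Gata3, the TH2 factor, at 67.4 and 62.6 CPM without and 167 and 115 CPM with stimulation (log2 change 1.12, SE 0.21, adjusted p = 0.00195). Their stimulated and unstimulated values did not overlap. Prdm1 (BLIMP-1), Ikzf3 (Aiolos), Irf8 and Runx1 rose by 2.94 (SE 0.34), 2.4 (SE 0.24), 2.63 (SE 0.19) and 1.48 (SE 0.18), and the repressor gene Gfi1 by 4.96 (SE 0.36). Ikzf4 (Eos) fell from 8.14 and 4.65 to 1.1 and 1.02 CPM (log2 change -2.58, SE 0.48, adjusted p = 0.00178). Foxp3, of regulatory T cells, and Bcl6, of follicular helper cells, were not called (9.08 and 20.3 CPM without and 17.1 and 20.1 CPM with stimulation, and 105 and 112 CPM without and 120 and 80.5 CPM with stimulation).

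Of 24 cytokine receptor chains 4 were called higher (16.7%, against 14.3% of all genes tested) and 3 lower (12.5%, against 13.8%), shares near those of all genes (5 lower without stimulated Compound 10 library 2). Both chains of the interferon gamma receptor fell, Ifngr1 from 209 and 187 to 41.4 and 48.7 CPM (log2 change -2.13, SE 0.19, adjusted p = 7.86e-06) and Ifngr2 from 62 and 55.2 to 25.2 and 23.3 CPM (log2 change -1.27, SE 0.19, adjusted p = 0.000383). Il17ra, a chain of the IL-17 receptor, was at 250 and 207 CPM without and 213 and 160 CPM with stimulation and was not called (adjusted p = 0.367). Of 11 SOCS and PIM genes, which cytokine signals induce, 5 were called higher (45.5%, against 14.3% of all genes tested). Among these, Pim3, a survival kinase, rose by 2.86 (SE 0.20), Cish by 2.13 (SE 0.34) and Socs1 by 1.74 (SE 0.24).

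Of 13 IRF and STAT genes, factors of the interferon and cytokine pathways, 7 were called lower and 2 higher (median -0.66). The share lower was 53.85%, against 13.8% of all genes tested. The share higher, 15.4%, was near the 14.3% of all genes. The median was -0.41 without unstimulated vehicle library 1, when 1 was called higher, and 0 were called higher without unstimulated vehicle library 2 or without stimulated vehicle library 1. Without both rRNA-rich libraries 4 were called lower. Stat2 fell from 26.9 and 34.6 to 5.22 and 7.07 CPM (log2 change -2.33, SE 0.29, adjusted p = 0.000118), and Irf9, its partner in the complex ISGF3, from 111 and 107 to 45.8 and 45 CPM (log2 change -1.26, SE 0.20, adjusted p = 0.00054). Irf1 was at 873 and 801 CPM without and 364 and 393 CPM with stimulation (log2 change -1.15, SE 0.20, adjusted p = 0.00127), and Stat5b, which transmits the IL-2 signal, fell by 1.7 (SE 0.23). Both stimulated libraries were below both unstimulated ones in each. Of 21 interferon-stimulated genes 4 were called higher (19%) and 3 lower (14.3%), shares near the 14.3% and 13.8% of all genes tested, with Oasl2 and Ifit2, antiviral effectors, falling by 2.4 (SE 0.37) and 2.18 (SE 0.48) and Ifih1, the RNA sensor MDA5, rising by 2.14 (SE 0.29). Of 17 interferon-inducible GTPase genes 4 were called higher (23.5%) and 1 lower (5.88%), against 14.3% and 13.8% of all genes tested. Their list median was -0.13, and -0.24 to 0.10 with 1 of the vehicle libraries left out.

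Ribosome biogenesis and RNA polymerase I genes were called higher for 33 of 40 (median 1.44, 25 called without both rRNA-rich libraries). Ppan, which processes ribosomal RNA, was at 16 and 15.7 CPM without and 136 and 131 CPM with stimulation (log2 change 3.07, SE 0.18, adjusted p = 4.77e-07) and Gnl3, nucleostemin, at 22.9 and 27.9 CPM without and 143 and 157 CPM with stimulation (log2 change 2.56, SE 0.20, adjusted p = 3.3e-06). The ranges within a state were narrow beside the distance between states. Nolc1, a nucleolar chaperone, rose by 2.27 (SE 0.20), Ncl, nucleolin, by 1.62 (SE 0.21) and Polr1b, a polymerase I subunit, by 1.96 (SE 0.27). Of the genes of the ribosome's own proteins 3 of 79 were called higher. Their list median was 0.16, which was -0.08 on log2(TPM + 1), and -0.19 and 0.61 without unstimulated vehicle library 1 and 2. The unstimulated libraries differed, with summed levels of 83930 and 130100 CPM, against 118100 and 125200 CPM with stimulation. A modest change of these genes may therefore have gone uncalled. Of the 13 mitochondrially encoded mRNAs 0 were called by edgeR on all 9 libraries, by DESeq2 or by limma, 0 were under an unadjusted p of 0.05 in that edgeR test, and 1 was called higher with the replicate block on the vehicle libraries alone. Their median of 0.15 was -0.15 on log2(TPM + 1), and 0.30 and 0.31 without unstimulated and without stimulated vehicle library 2.

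Translation initiation factors were called higher for 12 of 20 (median 1.05). Eif4a1, the RNA helicase, was at 1068 and 807 CPM without and 2923 and 2671 CPM with stimulation (log2 change 1.58, SE 0.23, adjusted p = 0.000402), and Eif4e, which binds the cap, at 131 and 107 CPM without and 304 and 330 CPM with stimulation (log2 change 1.41, SE 0.18, adjusted p = 0.000148). Its inhibitor Eif4ebp2 was not called (-0.67, SE 0.29). Aminoacyl-tRNA synthetases were called higher for 9 of 20, but for 5 without stimulated vehicle library 1 and 0 by limma on log2(TPM + 1), where the list median of 0.31 became -0.02. It was 0.46 without unstimulated vehicle library 1.

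Polyamine synthesis genes were called higher for 7 of 9, 4 without either unstimulated or without stimulated vehicle library 2, and 3 without both rRNA-rich libraries. Srm, spermidine synthase, rose from 45.3 and 37.6 to 247 and 168 CPM (log2 change 2.32, SE 0.21, adjusted p = 1.16e-05), and Amd1, which makes its cosubstrate, by 1.63 (SE 0.26). Of 25 genes of nucleotide synthesis and one-carbon metabolism 9 were called higher (36%, against 14.3% of all genes tested). Ctps, CTP synthase, was at 21 and 16.1 CPM without and 116 and 89.6 CPM with stimulation (log2 change 2.47, SE 0.25, adjusted p = 2.48e-05), and Shmt1 and Mthfd2, folate enzymes, rose by 2.65 (SE 0.25) and 1.32 (SE 0.20). Gmps, GMP synthetase, was not called (0.46, SE 0.18, adjusted p = 0.0732, but 0.0313 without stimulated Compound 10 library 2). Amino acid transporters were called higher for 4 of 11 (2 without unstimulated vehicle library 2, 7 without stimulated Compound 10 library 2). With all libraries 36.4% of the transporters were called higher and 9.09% lower, against 14.3% and 13.8% of all genes tested. Slc38a1, a glutamine carrier, was at 24.8 and 24.2 CPM without and 326 and 261 CPM with stimulation (log2 change 3.58, SE 0.23, adjusted p = 9.64e-07). Slc7a1, an arginine carrier, was at 24.2 and 28.1 CPM without and 175 and 182 CPM with stimulation (log2 change 2.77, SE 0.20, adjusted p = 1.87e-06).

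Glucose uptake and glycolysis genes were called higher for 11 of 20 (7 without unstimulated vehicle library 2, 6 without both rRNA-rich libraries). Pgam1 was at 127 and 143 CPM without and 512 and 634 CPM with stimulation (log2 change 2.08, SE 0.27, adjusted p = 0.000171) and Ldha, lactate dehydrogenase, at 935 and 804 CPM without and 2909 and 2492 CPM with stimulation (log2 change 1.64, SE 0.22, adjusted p = 0.000196). Hk1, hexokinase, and the glucose transporters Slc2a3 and Slc2a1 rose by 1.72 (SE 0.23), 1.36 (SE 0.23) and 1.15 (SE 0.25). Other steps were not called, among them Gapdh (0.62, SE 0.28) and Eno1 (-0.26, SE 0.22).

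In cholesterol metabolism 10 of 23 genes were called higher (5 without both rRNA-rich libraries) and 5 lower (3 without either unstimulated vehicle library, 2 without stimulated vehicle library 2). Sqle and Cyp51, enzymes of synthesis, were at 11 and 9.94 CPM without and 51.2 and 47.5 CPM with stimulation (log2 change 2.23, SE 0.18, adjusted p = 4.5e-06) and at 28.5 and 28.5 CPM without and 133 and 135 CPM with stimulation (log2 change 2.24, SE 0.22, adjusted p = 1.56e-05). Abcg1, a cholesterol exporter, fell from 145 and 102 to 44.4 and 30.9 CPM (log2 change -1.71, SE 0.23, adjusted p = 0.000209). With all libraries 43.5% of the cholesterol genes were called higher and 21.7% lower, against 14.3% and 13.8% of all genes tested. Heat shock chaperones were called higher for 12 of 17 (median 1.11, 6 called without both rRNA-rich libraries). Hspa5, the chaperone BiP of the endoplasmic reticulum, was at 1512 and 1094 CPM without and 6062 and 4827 CPM with stimulation (log2 change 2.06, SE 0.30, adjusted p = 0.000325) and Hspa9, its mitochondrial relative, at 130 and 123 CPM without and 410 and 391 CPM with stimulation (log2 change 1.66, SE 0.19, adjusted p = 4.98e-05).

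The BCL2 family had 5 of 14 called higher (35.7%) and 2 lower (14.3%), and 7 were not called. Of all genes tested 14.3% were called higher and 13.8% lower, so the share lower was near that of all genes. The prosurvival genes Bcl2a1b and Bcl2l1 were at 26.5 and 34.9 CPM without and 315 and 367 CPM with stimulation (log2 change 3.47, SE 0.24, adjusted p = 1.42e-06) and at 14.8 and 10.1 CPM without and 60.7 and 46.5 CPM with stimulation (log2 change 2.1, SE 0.26, adjusted p = 9.26e-05). Bcl2a1 copies are near-identical and their counts uncertain. The BH3-only genes Bbc3 (PUMA) and Bad fell from 25.9 and 19.1 to 4.91 and 4.5 CPM (log2 change -2.25, SE 0.22, adjusted p = 2.11e-05) and from 15.9 and 14.1 to 3.5 and 3.06 CPM (log2 change -2.19, SE 0.28, adjusted p = 0.000148), but Bcl2l11 (BIM), also BH3-only, rose by 1.18 (SE 0.24). Bcl2 itself was not called (30.7 and 46.6 CPM without and 32.3 and 37.2 CPM with stimulation; adjusted p = 0.683).

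Of 20 genes of G1 cyclins, kinases and inhibitors, 5 were called higher (3 without unstimulated vehicle library 2 or stimulated vehicle library 1) and 4 lower. Ccnd2, cyclin D2, was at 280 and 309 CPM without and 1650 and 1881 CPM with stimulation (log2 change 2.58, SE 0.21, adjusted p = 5.17e-06) and Cdkn1a, the inhibitor p21, at 56.6 and 37.5 CPM without and 550 and 288 CPM with stimulation (log2 change 3.15, SE 0.32, adjusted p = 2.23e-05). Cdkn1b, the inhibitor p27, fell from 42.2 and 48.8 to 13.1 and 16.8 CPM (log2 change -1.61, SE 0.27, adjusted p = 0.00102), and the pocket protein genes Rbl1 and Rbl2 fell by 2.5 (SE 0.44) and 2.73 (SE 0.52). Cdk4, the kinase partner of D cyclins, was not called (0.22, SE 0.20). The shares of this list called with all libraries were 25% higher and 20% lower, against 14.3% and 13.8% of all genes tested.

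Zinc finger protein genes named Zfp were called lower for 83 of 290 (28.6%) and higher for 15 (5.17%), against 13.8% and 14.3% of all genes tested. Their median was -0.61. The number called lower was 41, 36, 44 and 44 without unstimulated library 1, unstimulated library 2, stimulated library 1 and stimulated library 2, and 18 without both rRNA-rich libraries. Their levels were modest, as for Zfp395 at 6.7 and 7.36 CPM without and 2.09 and 1.86 CPM with stimulation (log2 change -1.83, SE 0.40) and Zfp740 at 24.8 and 27.6 CPM without and 5.85 and 6.59 CPM with stimulation (-2.07, SE 0.27). Of 8 GIMAP genes 2 were called higher (25%, against 14.3% of all genes tested). Gimap5 was at 13.1 and 15.3 CPM without and 128 and 137 CPM with stimulation (log2 change 3.22, SE 0.19, adjusted p = 6.7e-07). Of 11 snoRNA host genes 5 were called higher (45.5%, against 14.3% of all genes tested), and 2 without both rRNA-rich libraries.

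Genes with large rises were compact. Protein-coding genes called higher by at least 16-fold (84 genes) had a median span of 8.3 kb and a median of 5 exons, against 23.6 kb and 9 exons over the 11382 protein-coding genes tested. Those called lower by at least 8-fold (49 genes) also had a median of 5 exons, with a median span of 18.4 kb. A low number of exons was thus not particular to large rises. Of genes spanning under 5 kb, 15% were called higher by at least 2-fold, then 10.3% from 5 to 20 kb, 9.63% from 20 to 80 kb and 8.95% from 80 kb. The shares called lower by at least 2-fold were 8.35%, 11.5%, 11.6% and 7.73%. The longest genes were thus the least often called in either direction, and no test was run on these shares.

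The markers of CD4+ T cells were present in all 4 libraries, with 0 of 12 at 0 counts and summed levels of 1008 and 1151 CPM without and 2643 and 2220 CPM with stimulation. Of these, 8 were called higher, which lifts the sum, and Cd4 was not called, at 97.3 and 116 CPM without and 88.8 and 77.2 CPM with stimulation (-0.36, SE 0.21, adjusted p = 0.228). Of the CD8 markers, Cd8a had 0 or 1 count in every library, whereas Cd8b1 was at 4.83 and 6.52 CPM without and 6.68 and 7.31 CPM with stimulation and was not called (adjusted p = 0.478). B cell markers summed to 1235 and 712 CPM without and 1562 and 676 CPM with stimulation, and library 1 of each state was the higher. Of their 10 tested members Cd79b was called, lower, at 15.6 and 12.1 CPM without and 3.55 and 2.28 CPM with stimulation (log2 change -2.24, SE 0.37, adjusted p = 0.000764). This was 10% of the tested B cell markers, against 13.8% of all genes tested called lower. Natural killer cell markers summed to 20.3 and 15.6, then 43 and 28.5 CPM, those of neutrophils to 6.56 and 5.74, then 4.65 and 5.88 CPM, and those of monocytes, macrophages and dendritic cells to 6.27 and 2.58, then 4.91 and 3.96 CPM. Erythroid and platelet markers summed to 23.5 and 3.61, then 23.3 and 2.4 CPM. Of the tested markers of these 4 kinds, 1 of 7 for natural killer cells was called higher. This share, 14.3%, was that of all genes tested. The gene was Eomes, at 4.83 and 3.23 CPM without and 14.3 and 10.3 CPM with stimulation (log2 change 1.61, SE 0.44, adjusted p = 0.0179). Of 3 neutrophil markers S100a8 was called lower, at 2.16 and 0.323 CPM without and 0 and 0 CPM with stimulation (adjusted p = 0.0262), and of 3 myeloid markers Itgam was called higher, with 0 unstimulated and 24 stimulated counts (at least 6.56-fold higher, adjusted p = 0.00472). The call of Eomes was lost without unstimulated library 2 (adjusted p = 0.134) or stimulated library 1 (0.109), and that of S100a8 without unstimulated library 1 (0.145) or either stimulated library (0.114 and 0.104). Of 7 erythroid and platelet markers 0 were called. The part of these other cells in the results was not tested. In bulk RNA, fewer cells of a type and less RNA per cell cannot be told apart.

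Library pairs bearing the same number gave similar changes. Across the 14040 genes, the log2 changes from library 1 to library 1 and from library 2 to library 2 had a Pearson r of 0.73 (Spearman rho 0.71), and across the 6277 genes with a mean of at least 10 CPM r was 0.93 (rho 0.90). These correlations are across genes, which are not independent replicates, and describe these 4 libraries.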

How the data were processed

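Per the labels' protocols, a Qiagen kit served for RNA extraction and Clontech SMART-seq for library preparation. The submitters' processing notes name cutadapt, kallisto and mm10, while the tool versions and the transcript annotation were not given in the sources used here. Each deposited table lists, per the file headers, the estimated counts of every transcript, unscaled between libraries. Beside them the authors deposited TPM, an abundance per effective length whose total is equal in all libraries.

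From these files, estimated counts were summed per gene (108214 of 109617 transcripts matched GENCODE M21 without the version of the identifier; unmatched ones held 0.542% to 0.829% of a library) and rounded. Groups came from the sample titles. Filtering by filterByExpr, TMM scaling and the 2-sided quasi-likelihood test (glmQLFit, robust; glmQLFTest) used edgeR 4.0.16 in R 4.3.3, in 1 model of 9 libraries and 4 groups, with the contrast of stimulated minus unstimulated vehicle and Benjamini-Hochberg adjustment over all genes tested at 0.05. SE is the size of the log2 change divided by the root of F. Biological variation (coefficient 0.244) left a median SE of 0.327. On simulated data with 200 of 14040 genes changed, recovery was 1% at 1.5-fold, 18.4% at 2-fold, 63% at 4-fold and 84.6% at 8-fold. Of the simulated calls, 7.63% were false. In the data far more genes were called (3943), so these shares need not hold there.

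The 45 gene lists, the named-gene rule and the comparison were chosen with earlier results of these data known. Genes named were the 15 furthest up and 15 furthest down (called, mean log2 CPM of at least 4, no overlap of the vehicle groups; predicted genes, receptor segments and pseudogenes skipped), list members, the 5 long noncoding RNAs furthest in each direction, the 10 called genes with the largest count share in each direction and the genes with printed promoters; others are said to be named for their values. Which list members to describe was decided with their values known. Ccl5, Ccne1, Csf1, Gpi1, Il4ra, Impdh2, Osm, Prkcq, Rc3h1, Rc3h2, Rcan1, Tpi1 and Tyms, none of them called, are counted in their lists and were left undescribed after their values under the alternatives were seen. Alternatives were other scalings, filters and tests (DESeq2 1.42.0, limma 3.58.1 on log2(TPM + 1) and log2(TPM + 0.1)), the vehicle libraries alone, a replicate block, matching with the version, an effective length offset, and leaving out each library.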

Additional observations from a re-analysis of the deposited data

How the results depend on the processing

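Of 3943 genes called (2012 higher, 1931 lower, 2695 at least 2-fold), the count stayed within 1.5 times under median-of-ratios and upper-quartile scaling, without ribosomal RNA genes, without a filter, with DESeq2 (3892), with the vehicle libraries alone (3579) and with an effective length offset. A stricter filter, which tests fewer genes, left 1651 at least 2-fold. Limma on log2(TPM + 1) called 2026 (846 higher, 1180 lower, 1731 at least 2-fold), with the median of all genes at -0.19 against -0.05; with 0.1 added it called 1901 (796 and 1105), and with no filter 1403 (640, 763 and 1086). Matching transcripts with the version, which tests fewer genes, called 1217 (826, 391 and 1077), 3 of them in the opposite direction; there Rcan3 was at 0.30, Trbc1 at -0.21 and Foxp3 at -8.19. Leaving out 1 library gave 2425 to 4347 calls, 1338 to 2382 higher and 1087 to 1965 lower. Without both rRNA-rich vehicle libraries, chosen after seeing the data, 1596 were called (1047, 549 and 1515), with Bcl2 at 0.087, Bcl6 at 0.20 and Cd3d at 0.16, and the calls of Dgka, Eomes, Ifit2, Il7r, Itgam, Junb, Jund, S100a8, Satb1, Slc2a1, Trbc2 and Zfp395 were lost. Among genes not called with all libraries, leaving out 1 put Bcl2 at -0.43 to 0.19, Bcl6 at -0.44 to 0.15, Cd3d at -0.36 to 0.24, Eno1 at -0.59 to 0.014, Foxp3 at -0.13 to 1.04 and Lag3 at -0.27 to 1.86. The causes of these shifts were not tested. Matching with the version kept 63964 of 109617 transcripts and called 1217 of 9274 genes tested, against 3943 of 14040.

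With the replicate number as a block, 3869 genes were called over 9 libraries and 5546 (2972 higher, 2574 lower) over the vehicle libraries alone. Deviations of same-numbered libraries correlated at 0.33 between the 2 vehicle groups and at -0.10 to 0.23 between other groups, and the labels do not say what the number stands for, so it was not taken as pairing the samples. Both vehicle libraries numbered 2 were the richer in ribosomal RNA, and both numbered 1 had the higher B cell and erythroid marker sums. With a median SE of 0.327 on the log2 scale, a gene not called may still differ.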
